A study of Homo sapiens with 10 samples.

Results

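Genes of DNA replication and of cell division were followed in spheroids with and without SAMHD1. The set held 58 genes, chosen by name for their known roles, and all 58 were listed among the 13920 genes of the count table. Of these, 33 act in replication licensing, at the replication fork or in the entry into S phase, and 25 act in G2 phase or mitosis. No filter on low values was needed, since the lowest count of any member in any library was 567.

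A cell copies its genome by loading the MCM helicase onto origins in G1 phase and starting it in S phase, when CDC45 and the GINS complex join it. Genes of this machinery are switched on together by E2F transcription factors, whereas genes of spindle assembly and chromosome segregation peak later, through FOXM1 and the MuvB complex, which binds a short promoter element called the CHR. Levels of both groups of RNAs are widely read as a measure of how many cells in a culture are dividing. SAMHD1 degrades deoxynucleoside triphosphates, the building blocks of DNA.

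RNA was sequenced from spheroids labelled as T47D, a human breast cancer cell line, on day 4 of culture. The 4 wild-type (WT) libraries came from experiments 10, 11, 15 and 16, as did the 4 libraries of the SAMHD1-KO clone A1, and the 2 libraries of the SAMHD1-KO clone A2 came from experiments 15 and 16. Both clones had been made with a CRISPR-Cas9 plasmid aimed at exon 5 of SAMHD1, so each knock-out group is 1 clone and a difference between a clone and WT cannot be told apart from a difference between cell lineages. Nothing else in the labels differed between the groups. Counts were scaled to CPM (counts relative to the library total) with TMM normalization, and changes were tested with edgeR across all genes. A gene is called here when its p-value, adjusted by the Benjamini-Hochberg method over all 13920 genes, is under 0.05.

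Several features of the libraries bear on what follows. Total counts were 40077369 to 51311482 per library, and the 58 members took 0.753% to 0.876% of them. Mitochondrial genes took 7.79% to 10.7% of the counts in 9 libraries and 13.9% in clone A1 of experiment 15, where the share of the members was lowest. SAMHD1 RNA was at 49.8 to 56.4 CPM in WT, 22.5 and 23.0 CPM in clone A1 of experiments 10 and 11, 6.44 and 6.15 CPM in clone A1 of experiments 15 and 16, and 23.6 and 20.2 CPM in clone A2. Clone A1 therefore differed between the experiment pairs in the targeted RNA itself (log2 difference of the effects −1.81 ± 0.13 (SE), adjusted p = 1.22e-06). Between the 2 libraries that each group had within an experiment pair, the median absolute log2 difference over all genes was 0.152 for WT of experiments 10 and 11 and 0.0826 to 0.0998 for the others. By the chi-square of counts per degree of freedom, WT of experiments 10 and 11 (25.1) and clone A1 of experiments 15 and 16 (25.2) stood about equally far apart. The 10 markers listed for luminal breast cells did not all stand at a like level. ESR1, the oestrogen receptor, lay between 0.183 and 1.59 CPM over the 10 libraries, EPCAM between 0.348 and 1.78 CPM, and CDH1, which encodes E-cadherin, between 0.684 and 2.16 CPM, while KRT19 and KRT7 were not among the listed genes. KRT8 lay between 3.10 and 9.07 CPM. The other 4 were higher, PGR at 15.4 to 20.7 CPM, GATA3 at 15.4 to 24.8 CPM, FOXA1 at 14.1 to 26.8 CPM and KRT18 at 36.3 to 60.3 CPM. VIM, which encodes the mesenchymal filament vimentin, lay between 1175 and 1518 CPM, and CDH2, which encodes N-cadherin, between 118 and 158 CPM. Both were looked up after the other values were seen. ESR1, EPCAM, CDH1, KRT19, KRT7, the low KRT8, VIM and CDH2 thus go against the label. PGR, GATA3, FOXA1 and KRT18 were detected, but each stayed below CDH2 and VIM. The cells are called here by their label alone.

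The promoters are shown because the division of the set into S-phase and mitotic genes can be read in them. RefSeq promoter sequences (GRCh38.p14, 250 bases before to 50 bases after the start of a gene) were matched for 29 of the 33 S-phase members and 19 of the 25 mitotic members. They were searched on both strands for an E2F site (TTTCCCGC or TTTCGCGC or TTTGCCGC or TTTGGCGC), for the CHR (TTTGAA or TTCGAA) and for the CCAAT box, of which none contains another, though a CCAAT box shares 1 base with the E2F site of MCM7 and with a CHR of MKI67. The E2F site was found in 65.5% of the S-phase and 10.5% of the mitotic promoters, against 5.33% of the 11366 promoters of genes in the count table and 3.33% of all 27305 promoters, with 1 promoter a gene. The CHR was found in 3.45% of the S-phase and 68.4% of the mitotic promoters, against 11.2% of those in the count table and 16.6% of all. The CCAAT box was found in 51.7% and 84.2%, against 36.5% and 35.7%.

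The following lines give the 120 bases just before a RefSeq start of 8 of the members named below, 5′ to 3′ on the strand of the gene. Matches to the motifs are in capitals. On the opposite strand the CCAAT box reads ATTGG and the CHR reads TTCAAA, and the E2F site of CDT1 is on the opposite strand. Where RefSeq lists several starts, as for MCM7 and CDC45, the first in the table was used, and that of CDC45 lies within the span of the gene. The last base of the MCM7 line is the second letter of a CCAAT box that runs past the window.
MCM7 (chr7:100101398-100101517, minus strand): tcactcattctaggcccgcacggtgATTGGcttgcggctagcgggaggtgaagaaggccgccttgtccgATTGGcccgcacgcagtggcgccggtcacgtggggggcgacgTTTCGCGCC
LIG1 (chr19:48170345-48170464, minus strand): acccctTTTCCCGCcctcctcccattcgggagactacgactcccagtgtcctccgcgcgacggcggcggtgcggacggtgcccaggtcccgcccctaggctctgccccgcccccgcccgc
CDT1 (chr16:88803669-88803788, plus strand): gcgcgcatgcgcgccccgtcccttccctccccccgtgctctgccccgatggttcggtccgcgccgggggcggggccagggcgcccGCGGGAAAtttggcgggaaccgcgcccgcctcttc
CDC45 (chr22:19479800-19479919, plus strand): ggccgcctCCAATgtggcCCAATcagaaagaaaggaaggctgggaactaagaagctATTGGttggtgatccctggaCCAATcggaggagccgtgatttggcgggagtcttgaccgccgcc
KIF23 (chr15:69414229-69414348, plus strand): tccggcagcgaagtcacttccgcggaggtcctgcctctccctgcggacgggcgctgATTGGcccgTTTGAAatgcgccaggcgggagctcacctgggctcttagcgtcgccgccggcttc
KIF11 (chr10:92593010-92593129, plus strand): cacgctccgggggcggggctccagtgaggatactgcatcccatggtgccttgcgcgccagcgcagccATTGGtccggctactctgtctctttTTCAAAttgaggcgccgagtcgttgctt
CDC20 (chr1:43358861-43358980, plus strand): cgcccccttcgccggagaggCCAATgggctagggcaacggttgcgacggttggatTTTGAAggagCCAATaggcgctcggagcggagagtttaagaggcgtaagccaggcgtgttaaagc
PLK1 (chr16:23678769-23678888, plus strand): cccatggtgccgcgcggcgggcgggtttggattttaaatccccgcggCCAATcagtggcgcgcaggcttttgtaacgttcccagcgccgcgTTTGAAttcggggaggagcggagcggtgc
In these windows the E2F site was found for MCM7, LIG1 and CDT1, and the CHR for KIF23, KIF11, CDC20 and PLK1. Not every called mitotic member had a CHR there. Among those not shown, KIF20A and CCNB1 held CCAAT boxes and no CHR in the searched promoter, and the CHR of CENPF lay 40 to 45 bases after the start. MCM5, BIRC5 and UBE2C were among the members without a matched promoter. CDC45 held 4 CCAAT boxes and none of the 4 E2F spellings. A match is a description of the letters, and binding was not measured.

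In experiments 15 and 16, where all 3 groups were sequenced, nearly all of the members called were lower in the clones. In clone A1, 9 of the 58 members were called, 0 higher and 9 lower, which is 15.5% of the set, against 13.2% of all genes called in this comparison (6.44% higher and 6.74% lower). In clone A2, 13 members were called, 1 higher and 12 lower, or 22.4% of the set, against 21.2% of all genes (9.75% higher and 11.4% lower). The share of members called was close to that of all genes in this fit. Both comparisons use the same WT libraries, so the values of the clones are not independent of each other. With the experiment as a replicate block, the number called became 25 in clone A2 (4 higher, 21 lower), or 43.1% of the set, where 32.4% of all genes were called (15.5% higher and 16.9% lower), and 13 in clone A1 (0 higher, 13 lower), or 22.4%, where 23.3% were called (11.5% higher and 11.8% lower). Without any 1 of the WT and clone A1 libraries of experiments 15 and 16, 4 members were called in clone A1, all lower, and 6.61% to 9.2% of all genes.

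Over the 33 S-phase members the median log2 fold change was −0.024 in clone A1, with 17 members below 0 and 16 above, and −0.020 in clone A2, with the same numbers on each side. Over the 25 mitotic members it was −0.073 in clone A1, with 19 members below 0, and −0.12 in clone A2, with 22 below 0. The medians over all genes were 0.003 and 0.004. The further genes of both processes, listed apart, stood closer together, at −0.023 in clone A1 and −0.072 in clone A2 over 35 replication genes and at −0.044 and −0.085 over 61 mitotic genes. The 4 S-phase members called in clone A1 (12.1%) and the 6 called in clone A2 (18.2%) all fell. So did the 5 mitotic members called in clone A1 (20%) and 6 of the 7 called in clone A2 (28%). The shares of all genes called were 13.2% in clone A1 and 21.2% in clone A2, of which 6.74% and 11.4% were lower. The heat map of the members by library shows that the experiments, too, divide many of these genes.

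**Figure D1:**
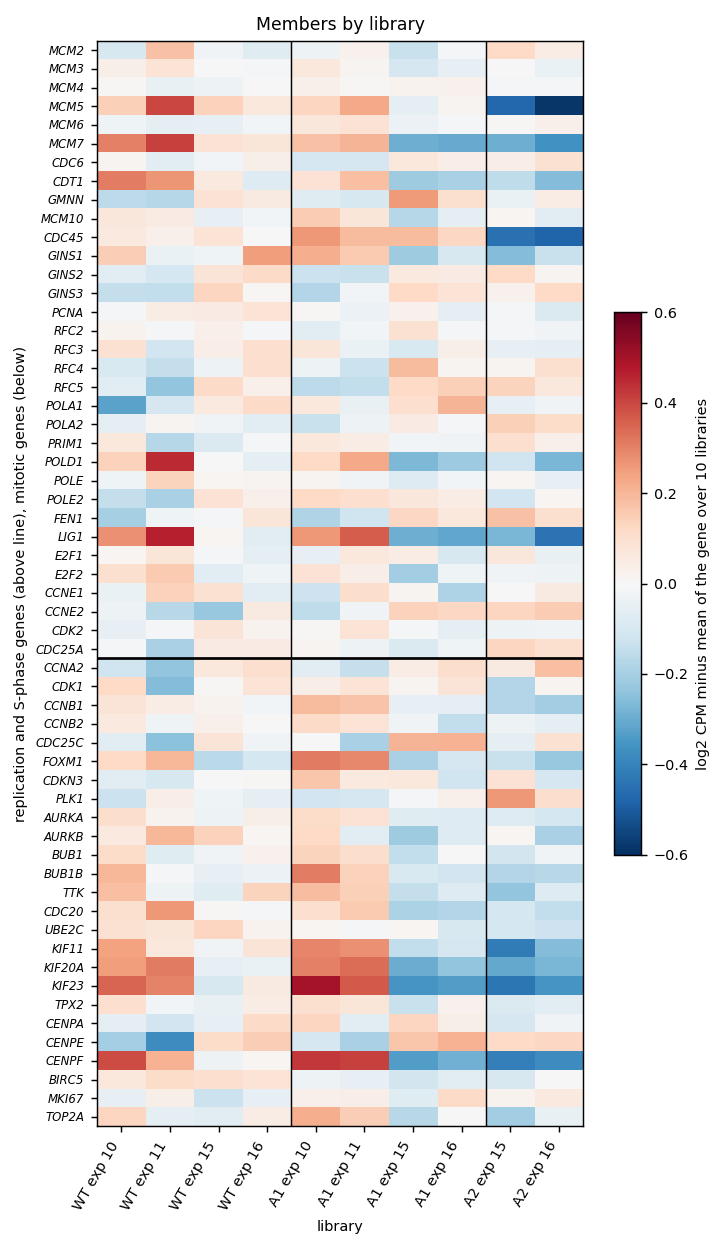
Each row is a member and each column a library, and the colour gives log2 CPM minus the mean of that gene over the 10 libraries, with S-phase genes above the black line and mitotic genes below it. MCM5 and CDC45 are low in the 2 clone A2 libraries, and MCM7, LIG1, KIF23, KIF20A and CENPF are lower in every library of experiments 15 and 16 than in the libraries of experiments 10 and 11.

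Among the 6 subunits of the MCM helicase, which unwinds DNA at the fork, MCM7 fell in both clones and MCM5 fell in clone A2. MCM7 was at 806 and 798 CPM in WT, 621 and 616 CPM in clone A1 and 619 and 590 CPM in clone A2 of experiments 15 and 16. The WT libraries were both above all 4 knock-out libraries. The log2 fold change was −0.38 ± 0.055 (SE, adjusted p = 0.000446) in clone A1 and −0.41 ± 0.055 (adjusted p = 9.26e-05) in clone A2, with n = 2 libraries a group here and in all comparisons of these experiments. Exons of MCM7 overlap those of AP4M1 on the opposite strand over 7.90% of their length, and whether the counting used the strand is not given in the sources used here. Such overlap was 37.1% for CCNE2, 23.6% for MCM2, 16.8% for CDK2 and 15.9% for FOXM1. Overlap with a gene model on the same strand, which strand does not resolve, was 8.63% for POLD1, 10.2% for BUB1B, 15.1% for PRIM1 and 16.8% for POLA2.

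MCM5 was at 165 and 156 CPM in WT, 144 and 151 CPM in clone A1 and 108 and 99.7 CPM in clone A2. Clone A2 lay below every other library, and its log2 fold change against WT was −0.63 ± 0.063 (adjusted p = 6.25e-06), whereas that of clone A1 was −0.12 and not called. MCM2, MCM3, MCM4 and MCM6 were not called in either clone, with log2 fold changes between −0.07 and 0.13. MCM2 was at 343 and 332 CPM in WT, 318 and 346 CPM in clone A1 and 378 and 360 CPM in clone A2. Its clone A2 libraries were above both WT libraries, but the change of 0.13 was not called (adjusted p = 0.147, and 0.0411 with the replicate block).

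Of the 8 genes of licensing and origin firing, GINS1 fell in both clones, and CDC45 and CDT1 fell in clone A2. CDC45, the helicase activator that joins MCM at firing, was at 58.2 and 54.8 CPM in WT, 62.8 and 59.96 CPM in clone A1 and 40.3 and 39.4 CPM in clone A2. The clone A1 libraries were above and the clone A2 libraries below both WT libraries, with log2 fold changes of 0.12 (not called) and −0.51 ± 0.067 (adjusted p = 7.83e-05). GINS1, a subunit of the GINS complex, was at 54.2 and 65.8 CPM in WT, 47.6 and 51.7 CPM in clone A1 and 46.1 and 50.4 CPM in clone A2. All 4 knock-out libraries were below both WT libraries, but the WT libraries differed from each other more than the WT library of experiment 15 differed from clone A1.

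The changes of GINS1 were −0.28 ± 0.086 in clone A1 (adjusted p = 0.0460) and −0.32 ± 0.086 in clone A2 (adjusted p = 0.0148). CDT1, which loads MCM onto origins and is named here after its values were seen, was at 211 and 192 CPM in WT, 175 and 177 CPM in clone A1 and 182 and 169 CPM in clone A2. Its changes were nearly equal, −0.20 ± 0.063 in both clones, but the adjusted p was 0.0517 in clone A1 (0.00375 with the replicate block) and 0.0334 in clone A2. CDC6, GMNN (geminin, the inhibitor of CDT1), MCM10, GINS2 and GINS3 were not called in either clone.

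Genes of the clamp and the polymerases moved little. PCNA, the sliding clamp of the polymerases, was at 174 and 178 CPM in WT, 171 and 161 CPM in clone A1 and 167 and 158 CPM in clone A2. Its knock-out libraries were all below the WT libraries, by −0.08 ± 0.059 and −0.12 ± 0.059 on the log2 scale, and neither difference was called (adjusted p = 0.399 and 0.175), though with the replicate block that of clone A2 was (adjusted p = 0.0436). RFC2, RFC3, RFC4 and RFC5 of the clamp loader were not called, with changes between −0.13 and 0.07. Of POLA1, POLA2, PRIM1, POLD1, POLE and POLE2, only POLD1, the catalytic subunit of the lagging-strand polymerase, was called, and only in clone A1. It was at 138 and 133 CPM in WT, 115 and 119 CPM in clone A1 and 127 and 114 CPM in clone A2, with a change of −0.22 ± 0.065 in clone A1 (adjusted p = 0.0368) and −0.17 ± 0.065 in clone A2 (adjusted p = 0.0680). In the fit with the replicate block, POLD1 (adjusted p = 0.0092), POLA1 (−0.13, adjusted p = 0.0448) and POLA2 (0.17, adjusted p = 0.00805), subunits of the priming polymerase, were called in clone A2. The change of POLD1 was not called as different between the clones.

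LIG1, the ligase that seals Okazaki fragments, was at 145 and 138 CPM in WT, 117 and 116 CPM in clone A1 and 119 and 106 CPM in clone A2. Both WT libraries were above all 4 knock-out libraries, and the changes were −0.28 ± 0.066 (adjusted p = 0.0128) and −0.33 ± 0.066 (adjusted p = 0.00209). FEN1, the flap nuclease of the same step, was not called in either clone. None of the 6 regulators of the entry into S phase (E2F1, E2F2, CCNE1, CCNE2, CDK2 and CDC25A) was called in either clone. With edgeR, 0 of these 6 in clone A1 and 1 in clone A2 had an unadjusted p under 0.05, against 3732 and 4682 of 13920 genes. DESeq2 called 0 of the 6, against 11.6% and 19.3% of all genes.

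E2F1, the transcription factor of the S-phase programme, was at 113 and 109.4 CPM in WT, 118 and 107 CPM in clone A1 and 119 and 110 CPM in clone A2. CCNE1, or cyclin E1, was at 27.0 and 24.2 CPM in WT, 25.6 and 22.3 CPM in clone A1 and 25.3 and 26.3 CPM in clone A2. The groups overlapped for both genes, with changes of 0.01 and 0.04 for E2F1 and of −0.10 and 0.01 for CCNE1.

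**Figure D2:**
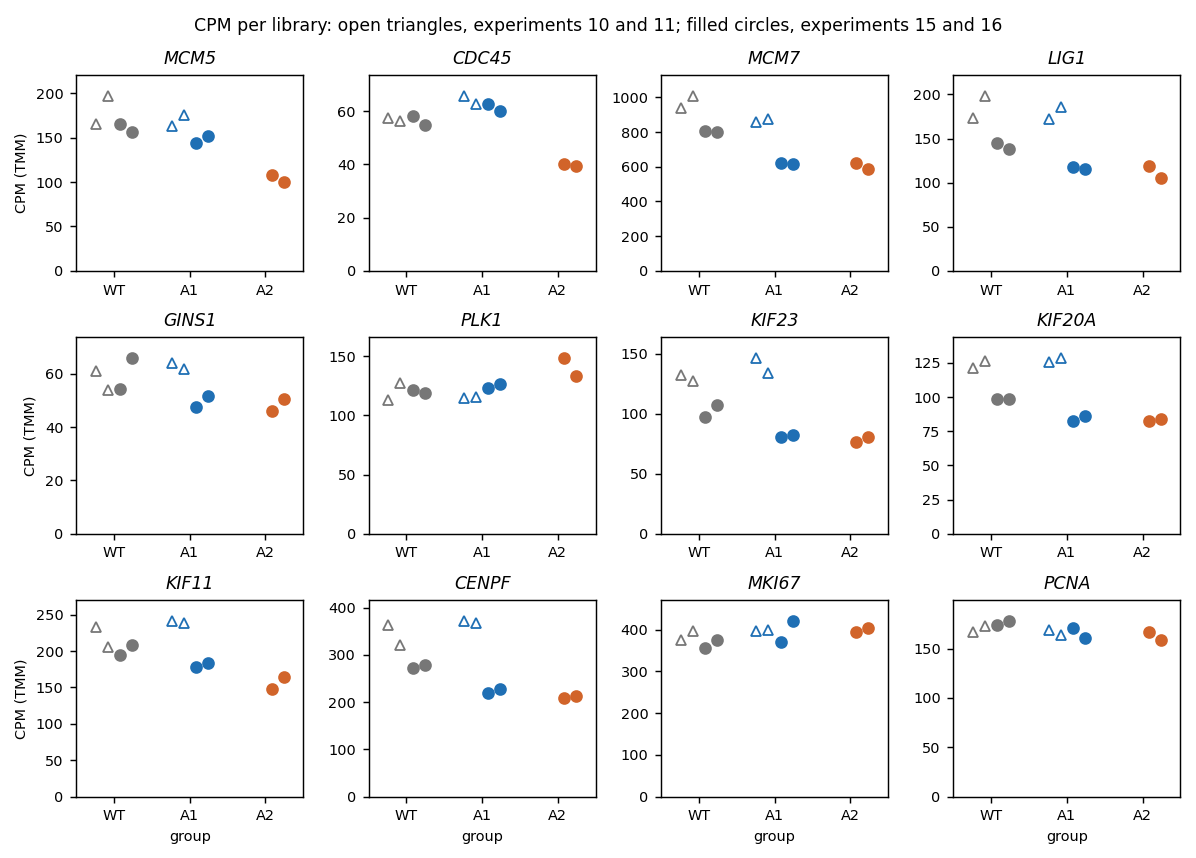
The vertical axes give CPM after TMM normalization, from 0, in WT, clone A1 and clone A2, with open triangles for experiments 10 and 11 and filled circles for experiments 15 and 16, each point being 1 library. MCM5 and CDC45 are lowest in clone A2, PLK1 is highest there, and MKI67 and PCNA overlap between the groups.

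The mitotic genes that fell in both clones were the kinesins KIF23 and KIF20A, and CENPF. KIF23, a kinesin of the central spindle, was at 97.0 and 108 CPM in WT, 80.9 and 82.1 CPM in clone A1 and 76.6 and 81.0 CPM in clone A2 of experiments 15 and 16. All 4 knock-out libraries were below both WT libraries, and the changes were −0.33 ± 0.066 (adjusted p = 0.00453) and −0.38 ± 0.066 (adjusted p = 0.000763). KIF20A, a kinesin of cytokinesis, was at 98.4 and 98.8 CPM in WT, 82.6 and 86.4 CPM in clone A1 and 82.3 and 84.2 CPM in clone A2. Its changes were −0.22 ± 0.060 (adjusted p = 0.0236) and −0.25 ± 0.060 (adjusted p = 0.00842), again with no overlap between WT and the clones.

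KIF11, the motor that pushes spindle poles apart, was at 195 and 208 CPM in WT, 178 and 184 CPM in clone A1 and 148 and 165 CPM in clone A2. It fell by 0.37 ± 0.064 on the log2 scale in clone A2 (adjusted p = 0.000718), and its change of −0.15 in clone A1 was not called (adjusted p = 0.136, and 0.0148 with the replicate block). The difference between the clones was −0.22 ± 0.064 (adjusted p = 0.0580, and 0.00175 with the replicate block). TPX2, a spindle assembly factor, was not called in either clone.

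CENPF, a protein of the kinetochore, was at 272 and 279 CPM in WT, 220 and 227 CPM in clone A1 and 209 and 214 CPM in clone A2. The 3 groups did not overlap, and the changes against WT were −0.30 ± 0.055 (adjusted p = 0.00215) and −0.39 ± 0.055 (adjusted p = 0.000138). BIRC5, or survivin, which belongs to the chromosomal passenger complex, was at 211 and 209 CPM in WT, 183 and 188 CPM in clone A1 and 184 and 197 CPM in clone A2. It fell in clone A1 (−0.18 ± 0.057, adjusted p = 0.0491) and was not called in clone A2 (−0.14, adjusted p = 0.0914, and 0.0150 with the replicate block). CENPA and CENPE were not called in either clone.

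Of the regulators of the entry into mitosis, CCNB1 fell in clone A2. CCNB1, or cyclin B1, was at 159 and 155 CPM in WT, 151 and 151 CPM in clone A1 and 138 and 136 CPM in clone A2. The clone A2 libraries were the lowest, with a change of −0.20 ± 0.056 (adjusted p = 0.0206), and clone A1 changed by −0.05 (adjusted p = 0.602). CDK1, the kinase that cyclin B1 activates, was at 178 and 187 CPM in WT, 178 and 186 CPM in clone A1 and 156 and 178 CPM in clone A2. Its clone A1 values overlapped those of WT, and its change of −0.13 in clone A2 was not called (adjusted p = 0.203, and 0.0342 with the replicate block). CCNA2, CCNB2, CDC25C, FOXM1 and CDKN3 were not called in either clone.

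PLK1, a kinase needed throughout mitosis, was the 1 member that rose. It was at 122 and 119 CPM in WT, 123 and 127 CPM in clone A1 and 148 and 134 CPM in clone A2, and the clone A2 libraries were the highest. The change was 0.22 ± 0.064 in clone A2 (adjusted p = 0.0202) and 0.05 in clone A1, and 12.8% of the exon length of PLK1 overlaps genes on the opposite strand. AURKA, AURKB, BUB1, BUB1B and TTK, the other kinases of the spindle and its checkpoint, were not called in either clone. Under the replicate block, AURKB (−0.22, adjusted p = 0.0360) and TTK (−0.14, adjusted p = 0.0361) were called lower in clone A1, and TTK (−0.19, adjusted p = 0.0044) and BUB1B (−0.13, adjusted p = 0.0344) in clone A2. CDC20, which activates the anaphase-promoting complex, was at 211 and 208 CPM in WT, 184 and 186 CPM in clone A1 and 195 and 190 CPM in clone A2. It fell in clone A1 (−0.18 ± 0.055, adjusted p = 0.0387), with a change of −0.13 in clone A2 (adjusted p = 0.116, and 0.0234 with the replicate block). UBE2C, the E2 enzyme of the same complex and named after its values were seen, fell in clone A2 by 0.19 ± 0.063 (adjusted p = 0.0389) and changed by −0.12 in clone A1 (not called).

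The usual proliferation markers did not pass the test. MKI67, which encodes the Ki-67 antigen, was at 355 and 375 CPM in WT, 369 and 421 CPM in clone A1 and 394 and 404 CPM in clone A2. Its changes of 0.11 ± 0.064 and 0.13 ± 0.064 (adjusted p = 0.288 and 0.187) were on the higher side, opposite in sign to the medians of the mitotic members, and turned to −0.0710 and −0.0688 when the median change of the genes within 10 Mb was subtracted. TOP2A, the topoisomerase that untangles sister chromosomes, was at 453 and 489 CPM in WT, 422 and 474 CPM in clone A1 and 410 and 459 CPM in clone A2. WT and the clones overlapped, with changes of −0.07 and −0.12 (adjusted p = 0.562 and 0.259). With the replicate block MKI67 (0.13, adjusted p = 0.0290) and TOP2A (−0.12, adjusted p = 0.0233) were called in clone A2.

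**Figure D3:**
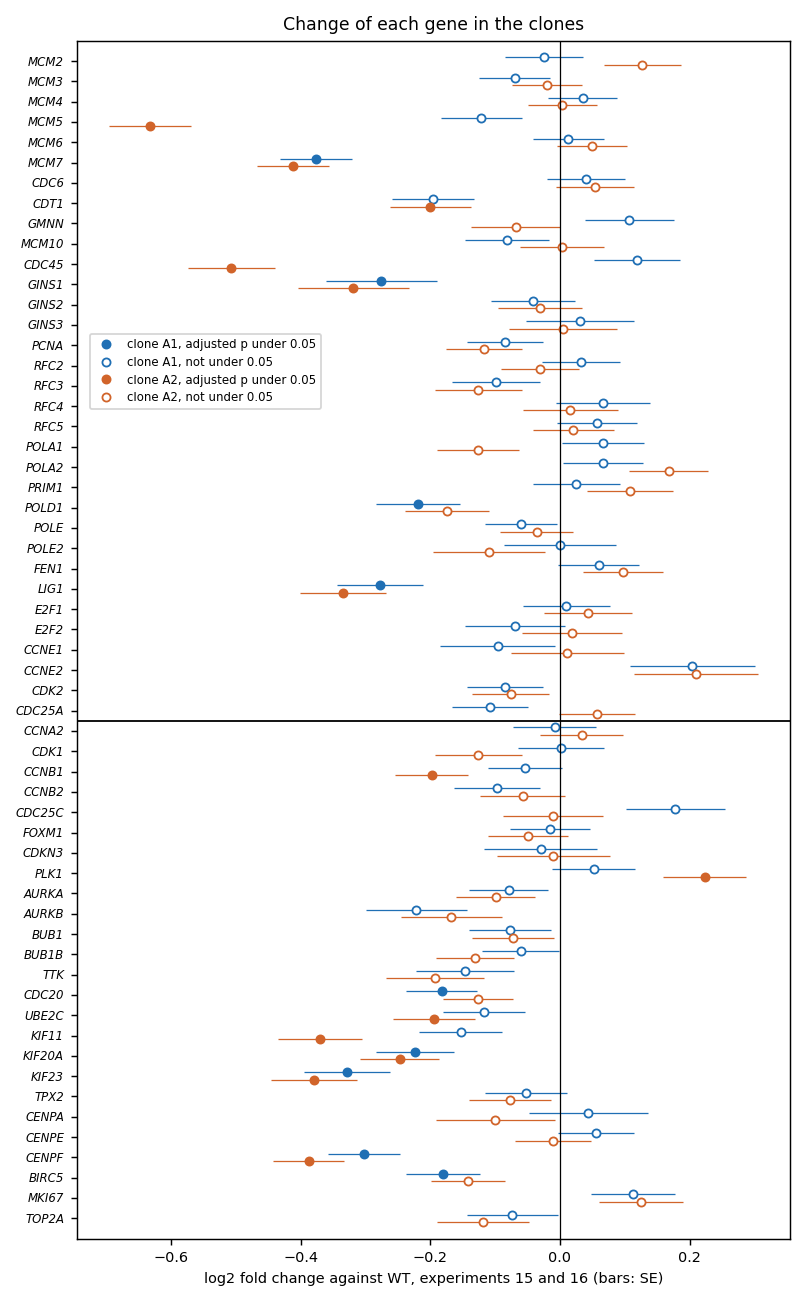
Each member has its log2 fold change against WT in experiments 15 and 16 for clone A1 (blue) and clone A2 (orange), with bars of 1 SE, filled where the adjusted p was under 0.05, and S-phase genes above the line. The filled points lie on the lower side, except PLK1 in clone A2 at 0.22.

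Clone A2 was also set against clone A1 in the same experiments. Only MCM5 and CDC45 were called, both lower in clone A2, or 2 of 58 members against 6.16% of all genes called and 4.16% called lower. MCM5 differed by −0.51 ± 0.063 (adjusted p = 8.92e-05) and CDC45 by −0.63 ± 0.067 (adjusted p = 2.50e-05). With the replicate block 9 members were called, MCM2, CDC25A and PLK1 higher and MCM5, CDC45, GMNN, POLA1, CCNB1 and KIF11 lower, where 14.0% of all genes were called (6.15% higher and 7.84% lower).

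Both of these genes lie on chromosome 22, MCM5 at chr22:35400140-35455031 and CDC45 at chr22:19479466-19520612 in GRCh38. The change of chromosome 22 was not limited to them. Of its 316 genes outside the set, 305 had a negative fold change in clone A2 against WT, with a median of −0.49, and 81.3% were called lower. In clone A1 the median of the same genes was 0.01. Around MCM5, the median change of the 184 genes within 10 Mb on either side was −0.51, and around CDC45 that of 113 genes was −0.40. After these regional medians were subtracted, the changes left in clone A2 were −0.11 for MCM5 (adjusted p = 0.227) and −0.09 for CDC45 (adjusted p = 0.355). MCM5 and CDC45 thus changed by about as much as their neighbours.

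Many of the other members that fell also lay among lowered genes. In clone A1 the neighbours' median was −0.19 for MCM7, −0.18 for LIG1, −0.17 for POLD1, −0.18 for KIF23, −0.18 for CENPF and −0.13 for BIRC5, and it lay within 0.03 of 0 for GINS1, CDC20 and KIF20A. In clone A2 it was −0.23 for CENPF and for KIF11, −0.20 for MCM7, −0.18 for KIF23, −0.16 for LIG1 and 0.24 for PLK1. For PLK1 the change left after subtraction was −0.01, and for KIF20A, whose neighbours did not move, it was −0.26 (adjusted p = 0.00534).

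Neighbours moved beyond 0.1 for 12 of the 58 members in clone A1, and 6 of the 9 called members were among these. In clone A2 the numbers were 13 of 58 and 8 of 13. Across the 58 members, the change of a gene and the median change of its neighbours correlated at Pearson's r = 0.63 in clone A1 and 0.78 in clone A2 (0.66 without MCM5 and CDC45). Both quantities come from the same libraries, and members that lie near each other share neighbours, so the correlation is a description. With the regional medians removed, 4 members were called in clone A1, namely MCM7, CDC20 and KIF20A, and CCNA2, which was not called before. GINS1 lost its call in clone A1 with a change that remained at −0.24 (adjusted p = 0.107). In clone A2 6 were called, namely MCM7, CDT1, GINS1, UBE2C, KIF20A and KIF23, all lower. These are 6.90% and 10.3% of the set, against 8.03% and 14.0% of all genes called in the same fits. DNA copy number was not measured in these files.

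**Figure D4:**
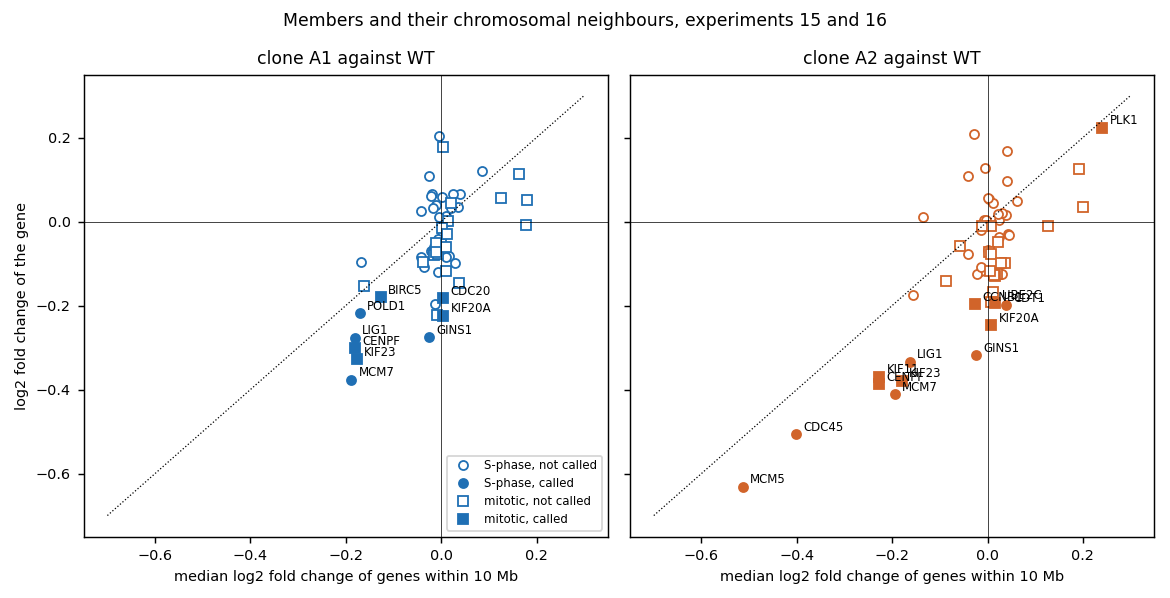
The horizontal axis gives the median log2 fold change of the genes within 10 Mb of a member and the vertical axis the log2 fold change of the member itself, against WT in experiments 15 and 16, with circles for S-phase and squares for mitotic genes, filled where called. MCM5 and CDC45 lie near the dotted line of equal change at the lower left in clone A2, and KIF20A and GINS1 fell while their neighbours stayed near 0.

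In experiments 10 and 11, where only WT and clone A1 were sequenced, no member was called. With edgeR 0 of 58 members passed, against 0.0862% of all genes, all of these lower. An unadjusted p under 0.05 was found for 3 members, all of S phase, and for 963 of all 13920 genes. DESeq2, limma-trend and the edgeR fit with the replicate block called 0 as well, the last with 1.65% of all genes called. The median change of the mitotic members was 0.085, with 20 of 25 above 0, and that of the S-phase members was −0.019. These counts rest on the 2 WT libraries. Without WT of experiment 10, 17 members were called, 13 higher and 4 lower, where 22.6% of all genes were called, and without WT of experiment 11, 1 member and 0.546% of all genes were called.

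The named markers show the range. TOP2A was at 518 and 455 CPM in WT and 552 and 525 CPM in clone A1 of experiments 10 and 11, and CDK1 at 191 and 147 CPM in WT and 182 and 187 CPM in clone A1. The WT libraries of CDK1 lay on both sides of clone A1, and the change of 0.12 was not called (adjusted p = 0.794). MKI67 was at 375 and 398 CPM in WT and 396 and 400 CPM in clone A1, and PCNA at 167 and 173 CPM in WT and 169 and 164 CPM in clone A1. MCM2 was at 326 and 394 CPM in WT and 341 and 354 CPM in clone A1, CCNE1 at 24.6 and 27.9 against 23.2 and 27.2 CPM, and E2F1 at 115 and 120 against 110 and 119 CPM. CCNB1 was at 165 and 161 CPM in WT and 178 and 176 CPM in clone A1, with a change of 0.12 (adjusted p = 0.766).

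The difference of the clone A1 effect between the experiment pairs was tested itself. CENPF was the 1 member called, against 1.91% of all genes called and 0.654% called with a lower effect. In experiments 10 and 11 it was at 363 and 321 CPM in WT and 372 and 369 CPM in clone A1, so that clone A1 was above WT there and below WT in experiments 15 and 16. The effect differed by −0.41 ± 0.10 (adjusted p = 0.0479), and the neighbours of CENPF by −0.24. The call was lost when any 1 of 6 libraries was left out, namely WT of experiments 15 or 16 or any of the 4 of clone A1, with 0 members and 0.503% to 0.805% of all genes called then. Without WT of experiment 10 the number was 5, with 8.35% of all genes called, and without WT of experiment 11 it was 2, with 4.02%. KIF23 was at 132 and 127 CPM in WT and 146 and 134 CPM in clone A1 of experiments 10 and 11, and its effect differed by −0.43 ± 0.11 (adjusted p = 0.0508). With the replicate block 4 members were called, GINS1, KIF11, KIF23 and CENPF, all with a lower effect, where 7.77% of all genes were called and 3.43% on that side.

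Over the 25 mitotic members the effect of clone A1 was lower in experiments 15 and 16 for 22, with a median difference of −0.13, and over the S-phase members the median was −0.035. The median difference was −0.089 over the 35 further replication genes (25 below 0) and −0.087 over the 61 further mitotic genes (44 below 0). Within single experiments, the median log2 ratio of clone A1 to WT over the mitotic members was 0.054, 0.088, −0.070 and −0.079 in experiments 10, 11, 15 and 16, and that of clone A2 was −0.12 in both of its experiments. Over the S-phase members all 6 medians lay between −0.033 and −0.001. The plot of group levels by library shows the same.

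**Figure D5:**
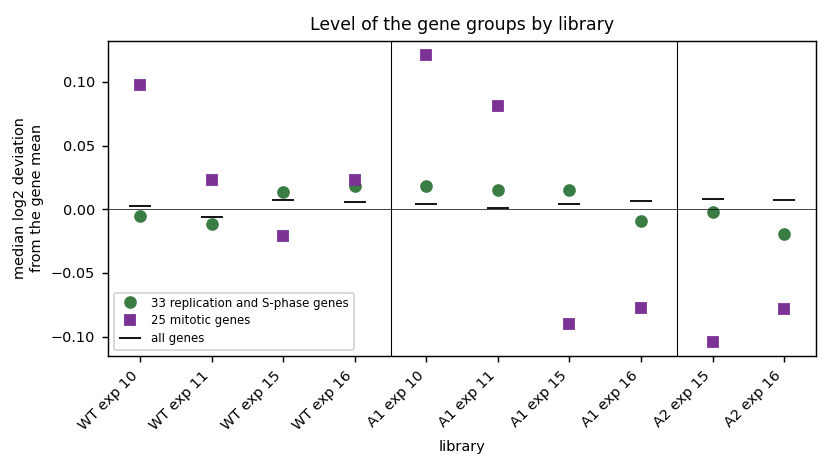
For each library, the vertical axis gives the median, over 33 S-phase genes (circles), 25 mitotic genes (squares) or all genes (dashes), of log2 CPM minus the mean of the gene over the 10 libraries. The mitotic genes lie highest in clone A1 and WT of experiment 10 and lowest in the 4 knock-out libraries of experiments 15 and 16, while the S-phase genes stay within 0.02 of 0.

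Taking the mean of both experiment pairs, MCM7 was the 1 member called in clone A1 (−0.27 ± 0.045, adjusted p = 0.00417), against 3.52% of all genes called and 2.32% called lower. It was at 936 and 1010 CPM in WT and 857 and 875 CPM in clone A1 of experiments 10 and 11, below WT there too. With the replicate block 6 members were called, CDT1, LIG1, POLD1, BIRC5 and MCM7 lower and CDC45 higher, where 12.5% of all genes were called (5.06% higher and 7.44% lower). Without WT of experiment 10 the number was 11, with 17.5% of all genes called, and without WT of experiment 11 it was 3, with 3.89%.

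WT itself differed between the experiment pairs. Set against experiments 10 and 11, 12 members were called in WT of experiments 15 and 16, against 14.6% of all genes (7.76% higher and 6.86% lower). Of the 12, GMNN, POLA1, CCNA2 and CENPE were higher and MCM7, CDT1, POLD1, LIG1, FOXM1, KIF20A, KIF23 and CENPF lower. LIG1 was at 174 and 199 CPM in WT of experiments 10 and 11, well above its later levels, and changed by −0.40 ± 0.077 (adjusted p = 0.00321). KIF20A, at 121 and 126 CPM in the earlier experiments, changed by −0.33 ± 0.069 (adjusted p = 0.00552). CENPE, a kinetochore motor, rose from 92.8 and 82.4 to 116 and 119 CPM (0.42 ± 0.077, adjusted p = 0.00221), among neighbours with a median of 0.39. The 12 calls fell to 3 without WT of experiment 15 and to 2 without WT of experiment 16, as the share of all genes called went to 6.02% and 4.4%.

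Direction within an experiment was counted without a test. In clone A1, 10 members were below WT of the same experiment in all 4 experiments, or 17.2%, against 12.1% of all genes, and 8 were above, or 13.8%, against 11.6%. In all 6 knock-out libraries, 7 members were below, or 12.1%, against 8.04% of all genes, namely MCM5, MCM7, CDT1, POLD1, LIG1, UBE2C and BIRC5. MCM6 and MKI67 were above in all 6, or 3.45%, against 7.63%. The 6 knock-out and the 4 WT libraries did not overlap for UBE2C and BIRC5, both lower in the knock-outs, where 1.51% of all genes did not overlap. Clone A1 and WT alone, 4 libraries each, did not overlap for these 2 and for MCM4 and CDC45, both higher in clone A1, where 2.74% of all genes did not overlap. UBE2C was at 136 to 146 CPM in WT and 123 to 135 CPM in the knock-outs, and BIRC5 at 206 to 213 and 183 to 197 CPM.

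Other genes of the same processes were listed apart from the 58. In experiments 15 and 16, 6 of 35 further replication genes fell in clone A1 (17.1%, against 13.2% of all genes called) and 7 in clone A2 (20%, against 21.2%), with 0 higher in both. The calls with the replicate block were 3 higher and 10 lower in clone A1 (37.1%, against 23.3% of all genes), and 1 higher and 9 lower in clone A2 (28.6%, against 32.4%). They included UHRF1, which copies DNA methylation after the fork (−0.39 and −0.42), ORC5, a subunit of the origin recognition complex (−0.38 and −0.51), and DBF4, the activator of the kinase CDC7 (−0.37 and −0.50). Of 61 further mitotic genes, 8 fell in clone A1 (13.1%) and 15 in clone A2 (24.6%), with 0 higher, and with the replicate block 3 rose and 11 fell in clone A1 (23.0%) and 2 rose and 22 fell in clone A2 (39.3%). CDC25B, a phosphatase that activates CDK1, changed by −0.44 and −0.49, and NEK2, a centrosome kinase, by −0.40 and −0.43. CENPM and GTSE1, both on chromosome 22, fell in clone A2 by 0.69 and 0.62. The changes of these further genes, and of the lists that follow, are given before any subtraction of the change of their neighbours. How far they moved with their neighbours is not shown here.

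Among 29 cell cycle brakes, G1 regulators and partners of E2F and MuvB, 3 rose and 2 fell in clone A1 (17.2%, against 13.2% of all genes called), and 3 rose and 5 fell in clone A2 (27.6%, against 21.2%). Under the replicate block, 6 rose and 5 fell in clone A1 (37.9%, against 23.3%), and 6 rose and 8 fell in clone A2 (48.3%, against 32.4%). CDKN1B, which encodes the CDK inhibitor p27, was at 54.1 and 55.9 CPM in WT, 70.6 and 72.1 CPM in clone A1 and 64.6 and 67.4 CPM in clone A2. Every knock-out library was above WT, and the changes were 0.37 ± 0.063 (adjusted p = 0.00122) and 0.26 ± 0.063 (adjusted p = 0.00804). In experiments 10 and 11 CDKN1B was at 45.7 and 41.7 CPM in WT and 43.0 and 45.3 CPM in clone A1, which overlapped. CCND1, or cyclin D1, fell in clone A2 (−0.27 ± 0.063, adjusted p = 0.00694) and, with the replicate block alone, in clone A1 (adjusted p = 0.00780), and CDK6, its partner kinase, fell in both (−0.24 and −0.26). Changes over the 29 genes ran from −0.398 to 0.373 in clone A1 and from −0.432 to 0.358 in clone A2. The other called genes of this list, some higher and some lower, are not named.

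Of 9 genes of deoxynucleotide supply, the substrate pathway of SAMHD1, only TK1 was called, or 11.1%, against 13.2% of all genes in clone A1 and 21.2% in clone A2. With the replicate block RRM2, a subunit of ribonucleotide reductase, was also called in clone A2 (−0.14, adjusted p = 0.0120). That made 22.2% of the 9, against 32.4% of all genes. TK1, thymidine kinase, was at 79.8 and 79.1 CPM in WT, 68.5 and 64.6 CPM in clone A1 and 67.4 and 67.2 CPM in clone A2, and at 84.5 and 98.4 against 72.1 and 74.8 CPM in experiments 10 and 11. Its changes in experiments 15 and 16 were −0.26 ± 0.062 (adjusted p = 0.0130) and −0.24 ± 0.062 (adjusted p = 0.0108).

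Markers of other states and cells were read from the same fits. Of 18 listed hypoxia genes, 11 rose in clone A1 (61.1%, against 13.2% of all genes called) and 7 rose and 1 fell in clone A2 (44.4%, against 21.2%) of experiments 15 and 16, with BNIP3 at 0.48 and 0.38. Under the replicate block 15 rose in clone A1 (83.3%, against 23.3%), and 9 rose and 1 fell in clone A2 (55.6%, against 32.4%). In experiments 10 and 11 edgeR and DESeq2 called 0 of them, against 0.0862% and 0.165% of all genes. Where 963 of 13920 genes had an unadjusted p under 0.05 with edgeR, 0 of the hypoxia genes did. Their median log2 ratio to WT was −0.062, 0.25, 0.24 and 0.22 in clone A1 of experiments 10, 11, 15 and 16 and 0.17 and 0.12 in clone A2. In experiment 11 it was the WT library that was low, with a median of −0.295 for log2 CPM minus the mean of the gene over the 10 libraries, and clone A1 was at −0.135. Of 16 immune, stromal and endothelial markers 5 were listed, and their summed level was 21.6 to 31.0 CPM in WT, 15.1 to 22.0 CPM in clone A1 and 15.4 to 15.8 CPM in clone A2. COL3A1 fell in both clones (−1.66 and −2.16) and CD14 in clone A1, and the other 3 (CD68, COL1A1 and VWF) were not called. Of the 8 luminal markers listed, FOXA1 rose and KRT8 fell in both clones and KRT18 fell in clone A1, with a median change of −0.25 in clone A1 and −0.14 in clone A2 and 6 of 8 below 0 in each. These calls are 37.5% of the 8 in clone A1 (13.2% of all genes) and 25% in clone A2 (21.2%), and with the replicate block EPCAM was also called lower in clone A1 (50%, against 23.3%), and PGR, GATA3 and KRT18 in clone A2 (62.5%, against 32.4%). In clone A1 of experiments 10 and 11, 1 of the 8 was called, lower (12.5%, against 0.0862% of all genes), with a median change of −0.18. Taking the mean of both pairs, 1 rose and 2 fell (37.5%, against 3.52%). The summed level of the 8 luminal markers was 113.3 to 129.6 CPM in WT, 106.4 to 118.1 CPM in clone A1 and 101.7 to 105.6 CPM in clone A2. The part of hypoxia, of luminal character or of other cells in the changes of the cell cycle genes was not tested. In bulk RNA, fewer dividing cells and less RNA of these genes per cell cannot be told apart.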

How the data were processed

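Per the labels, stranded mRNA libraries of spheroids were sequenced (4 WT, 4 clone A1, 2 clone A2). The authors aligned reads to GRCh38 with HISAT2, removed genes with a count of 0 in any library and deposited whole read counts per NCBI gene without normalization. StringTie is also named in the submitters' processing notes, and the counting program is not given in the sources used here. The labels and the paper name different RNA extraction kits.

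The fits were made with edgeR 4.0.16 under R 4.3.3, by the robust quasi-likelihood test on group means after TMM scaling. Experiments 15 and 16 were fitted with 3 groups (6 libraries), experiments 10 and 11 with 2 (4 libraries), and the comparisons across the experiment pairs over 8 libraries in 4 groups. SE is the fold change divided by the square root of F. The study's methods call its samples biological duplicates, and p-values measure the spread between these libraries. The experiment number of the labels was shared between groups. Once group means were removed, libraries of WT and clone A1 correlated at 0.468 to 0.526 within an experiment, but at 0.399 to 0.461 between the experiments of a pair too. Once the means of each group and pair were removed, libraries of the same experiment correlated at 0.0844 to 0.151. Libraries of different pairs reached values as large, such as 0.137 and 0.178 for WT of experiment 10 with clones A1 and A2 of experiment 16. The numbers were taken as shared experiments from the labels, and a replicate block was fitted as an alternative. The 45 pairs of libraries all differed by more than counting noise (lowest chi-square per degree of freedom 6.74). Other alternatives were DESeq2 1.42.0, limma-trend (limma 3.58.1), RLE normalization, a mean count of at least 10, filterByExpr, all 10 libraries in 1 fit, each library left out, and subtraction of the median change of genes within 10 Mb (at least 20 genes, limma-trend). Of the 13920 genes, 13885 had a symbol and position.

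The members and the other lists were chosen with earlier results of these data known, so their counts stand beside those of all genes and no test was made over a list. Given with values are MKI67, PCNA, TOP2A, MCM2, CCNE1, E2F1, CDK1 and CCNB1, up to 5 called members per direction, comparison and phase group with the largest change, any member called in both experiment pairs (0), and up to 3 called genes per direction of other lists. Scripts were tested on simulated data.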

Additional observations from a re-analysis of the deposited data

Results flagged for a closer look

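The effect of clone A1 on CENPF differed between the experiment pairs, by −0.41 on the log2 scale, above WT in experiments 10 and 11 and below WT in experiments 15 and 16. The cause was not tested. The experiment pair cannot be told apart from the level of SAMHD1 RNA in clone A1, which also differed between the pairs.

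For the S-phase members, the median of log2 CPM minus the mean of the gene over the 10 libraries was compared within clone A1. The library of experiment 16 stood apart from the other 3 (Dixon's ratio 0.893, above its critical value for 4 samples). Its value was −0.009, and the others lay between 0.0152 and 0.0181. This was 1 of 46 groups tested, and chance marks about 1 in 20.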

How the results depend on the processing

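The number of members called depended on the setting. With regional medians removed it was 4 for clone A1 and 6 for clone A2 against WT in experiments 15 and 16, and 0 for clone A2 against clone A1, for the mean of the experiment pairs and for the difference between the pairs. With the replicate block it was 25 for clone A2 against WT, 9 for clone A2 against clone A1, 6 for the mean of the pairs and 4 for the difference, and the block could not be fitted for WT between the pairs, since each experiment lies in 1 pair. With all 10 libraries in 1 fit it was 5 for clone A1 in experiments 15 and 16 and 2 for the difference. DESeq2 gave 3 for the mean of the pairs and 2 for the difference, and RLE normalization, a mean count of at least 10 and filterByExpr each gave 2 for the difference. The share of all genes called moved as well. In the order of these counts it was 8.03%, 14.0%, 4.32%, 1.94% and 1.36% with regional medians removed, 32.4%, 14.0%, 12.5% and 7.77% with the replicate block, 8.24% and 2.5% with all 10 libraries, and 5% and 2.94% with DESeq2, and 1.98% to 2.07% for the last 3.

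With 1 library left out, the number called ranged from 4 to 11 for clone A1 and from 9 to 13 for clone A2 against WT in experiments 15 and 16, from 2 to 3 for clone A2 against clone A1, from 0 to 17 for clone A1 in experiments 10 and 11, from 1 to 11 for the mean of the pairs, from 0 to 5 for the difference and from 2 to 18 for WT between the pairs. The share of all genes ranged, in the same order, from 6.61% to 13.3%, 12.7% to 23%, 3.57% to 6.7%, 0.136% to 22.6%, 1.05% to 17.5%, 0.503% to 8.35% and 4.4% to 26.7%. A group left with 1 library was assumed to vary like the others.

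With regional medians removed, the sign turned for PLK1 in clone A2 (−0.0133), for MCM5 between the clones (0.0078), for MKI67 in clone A1 (−0.0710) and clone A2 (−0.0688), and in clone A1 for CCNE1 (0.0717) and CDK1 (−0.0224). DESeq2 and RLE normalization turned CDK1 in clone A1 (−0.0009). Leaving out a library turned the sign in clone A1 of experiments 15 and 16 for TOP2A (range −0.1572 to 0.0045), MCM2 (−0.0849 to 0.0320), CCNE1 (−0.2017 to 0.0012), E2F1 (−0.0673 to 0.0824) and CDK1 (−0.0314 to 0.0338), and in clone A2 for CCNE1 (−0.0710 to 0.0907) and E2F1 (−0.0137 to 0.0984). In experiments 10 and 11 it did so for MCM2 (−0.1779 to 0.0941), CCNE1 (−0.1727 to 0.0504), E2F1 (−0.0921 to 0.0178) and CDK1 (−0.0562 to 0.3246). None of these genes was called there, except PLK1 and MCM5. Of 324 recomputed values of the 23 called changes of named genes, 264 kept their direction and side of the threshold, 58 lost the call and 2 turned. The causes were not tested.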
